A study of Mus musculus and Oryctolagus cuniculus and Sus scrofa with 20 samples.

Results

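Early-absent piRNA tags of rabbit testis are distinct small RNA sequences of 25 to 32 nt that had no read in the libraries of days 10 to 70 and were abundant at days 110 and 180. A tag was taken if it had at least 5 reads per 1000000 reads of the library (RPM) in both the day 110 and the day 180 library and no read at days 10, 30, 60 and 70. The rule found 4208 tags among 11012 that reached the minimum at both late ages (38.2%) and among 476287 that had a read at both. The tags were chosen by their read counts at these 6 ages, so their levels there are a description. Days 80 and 90, base composition, length within the window, shared 5' ends and pairing were not used.

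The series holds 20 small RNA libraries, and 8 of them come from testes of wild type, untreated male rabbits at postnatal days 10, 30, 60, 70, 80, 90, 110 and 180. Rabbit RNA was total RNA with an added exogenous spike-in, and the labels give no strain and no number of animals. Each age is 1 library, of 7400969 (day 70) to 13218352 (day 110) reads, so a difference between ages has no replicate check and compares libraries. At day 110, 5 RPM corresponds to 66.1 reads, and a count of 0 allows up to 0.367 to 0.405 RPM (3 reads) in a library of days 10 to 70. Reads of 25 to 32 nt made up 22.9% to 24.6% of reads at days 10 to 70, 30.7% at day 80, 39.0% at day 90, 71.1% at day 110 and 76.8% at day 180.

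PIWI-interacting RNAs (piRNAs) are single-stranded small RNAs, longer than miRNAs, that guide PIWI proteins of the animal germline. Primary piRNAs are cut from long precursor transcripts and mostly begin with U, read here as T. In the ping-pong cycle a PIWI protein cuts a target opposite bases 10 and 11 of its guide, which gives partners whose 5' ends overlap by 10 nt and, opposite a guide that begins with U, an A at base 10 of the partner. Mammalian testes make a large piRNA population when spermatocytes enter the pachytene stage of meiosis. In mouse the PIWI protein MILI binds shorter piRNAs than MIWI, which appears later in germ cell development.

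The tissue label was checked with miRNAs of the RefSeq mouse table, which matched 2 of 5 chosen names. miR-449a-5p, found in meiotic and later germ cells, stood at 11.5 to 16.3 RPM at days 10 to 70, 25.9 at day 80, 64.8 at day 90, 702 at day 110 and 673 at day 180. miR-202-5p, a gonadal miRNA, was present at every age, from 876 (day 180) to 10251 (day 70) RPM. In whole testis, more germ cells of a kind and more RNA per cell cannot be told apart.

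The 10 starts whose early-absent tags have the highest summed level, each shown by its leading tag, show what these RNAs look like. They are named LT1 to LT10 in that order, and capitals mark the first and the tenth base.
LT1: TgagaaaacAgcatctgacatgtactaagc
LT2: TgaaagtggAccagagattcctcaa
LT3: TtaaaggaaTtggagtctctgttgtccggt
LT4: TcatgtcccTagttgaagacatttgactct
LT5: TaaagaactGagggttctgggaattcaag
LT6: TggttcttcTgtattccacattgactctct
LT7: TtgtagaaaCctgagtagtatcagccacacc
LT8: TttgaatctGgttgaatgagatggctgtt
LT9: GaacatggaTcttgggaagttctttaaga
LT10: TaggaattcCacaccgttcgggctccggc
All begin with T except LT9, which begins with G, and LT1 and LT2 have A at base 10.

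LT1 had no read at days 10 to 90, 2009 reads (152 RPM) at day 110 and 1611 reads (168 RPM) at day 180. Its first 18 nt, in a read of any length, were seen 0 times at days 10 to 70, 1 time at day 80 and 1 time at day 90, against 2314 reads at day 110. LT9 was alike, with 0 reads at days 80 and 90, 528 at day 110 (39.9 RPM) and 419 at day 180 (43.6 RPM). LT1 and LT9 are the starts of the 10 without an early read in any form.

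LT10 had 9 reads at day 90 (1.14 RPM), 880 at day 110 (66.6 RPM) and 669 at day 180 (69.6 RPM). LT4 had 2 reads at day 90, 1291 at day 110 (97.7 RPM) and 706 at day 180 (73.4 RPM). LT6 had 1 read at day 80, 2 at day 90, 791 at day 110 (59.8 RPM) and 824 at day 180 (85.7 RPM). In each of these, day 110 stood far above day 90, and days 110 and 180 lay within 2-fold of each other.

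As a set the early-absent tags held no read at days 10 to 70, by the rule. They took 535 reads (64.3 RPM) at day 80 and 5772 reads (731 RPM) at day 90, 11.4-fold higher. At day 110 they took 586878 reads, 4.44% of the library, and at day 180 they took 491196 reads, 5.11%. The summed level was 60.8-fold higher at day 110 than at day 90, and the miR-449a-5p level 10.8-fold higher. The tags were chosen for a high day 110 level and no early read, and miR-449a-5p was not, so these folds do not compare. The median tag stood at 8.25 RPM at day 110 and 9.78 at day 180, and the highest, LT1, at 152 and 168.

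Some early-absent tags were already present at days 80 and 90, which the rule did not use. A read was present for 450 tags at day 80 (10.7%, 95% interval 9.78% to 11.7%) and for 1812 at day 90 (43.1%, 41.6% to 44.6%). Over all 11012 late tags, 23.9% had a read at day 80 and 54.1% at day 90, but these include tags with many early reads, so that the rule itself favours a lower share. Late tags with 1 or 2 early reads had a read in 16.3% at day 80 and 50.3% at day 90. First reads came at day 80 for 450 tags, at day 90 for 1569 and at day 110 for 2189 (52.0%). Most sightings were faint: at day 80, 386 of the 450 tags had a single read and 13 had 3 or more, while at day 90, 757 of the 1812 had a single read and 692 had 3 or more. No tag reached 5 RPM at day 80, and 3 did at day 90. A tag seen at day 80 was seen again at day 90 in 243 of 450 cases (54.0%), and a tag not seen at day 80 appeared at day 90 in 41.8%.

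The 3 tags highest at day 80 are shown with the first and the tenth base in capitals.
Early tag 1: TgaaaaggtGaacagggcactctgtct
Early tag 2: TgcttgtagGactggctcttgggcgcc
Early tag 3: TggaataggAggcaaggaggccttgagc
Early tag 1 had 6 reads at day 80, 26 at day 90, 267 at day 110 and 172 at day 180, or 0.721, 3.29, 20.2 and 17.9 RPM. Early tag 2 had 5, 29, 170 and 140 reads at these ages, and Early tag 3 had 5, 6, 104 and 162. Early tags 1 and 2 had over 4 times as many reads at day 90 as at day 80, while Early tag 3 had nearly the same count at both. Counting reads of any form, the start of Early tag 1 had 6 reads at day 60 and 1 at day 70. That of Early tag 2 had 2 at day 70, and that of Early tag 3 had 0 at days 10 to 70.

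Of the tags with no read at days 80 and 90, LT1 was the most abundant, followed by 2 others, shown for contrast.
Day 110 tag 2: AccagagccAgagtacttaggacaaggaga
Day 110 tag 3: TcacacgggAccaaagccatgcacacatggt
Day 110 tag 2 had 666 reads (50.4 RPM) at day 110 and 598 (62.2 RPM) at day 180. Day 110 tag 3 had 717 (54.2 RPM) and 497 (51.7 RPM). Other forms of their starts were read earlier. The start of Day 110 tag 2 had 1, 0, 6 and 2 reads at days 10, 30, 60 and 70, and 3 at day 90. That of Day 110 tag 3 had 1, 1, 0 and 3, and 2 at day 90.

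**Figure D1:**
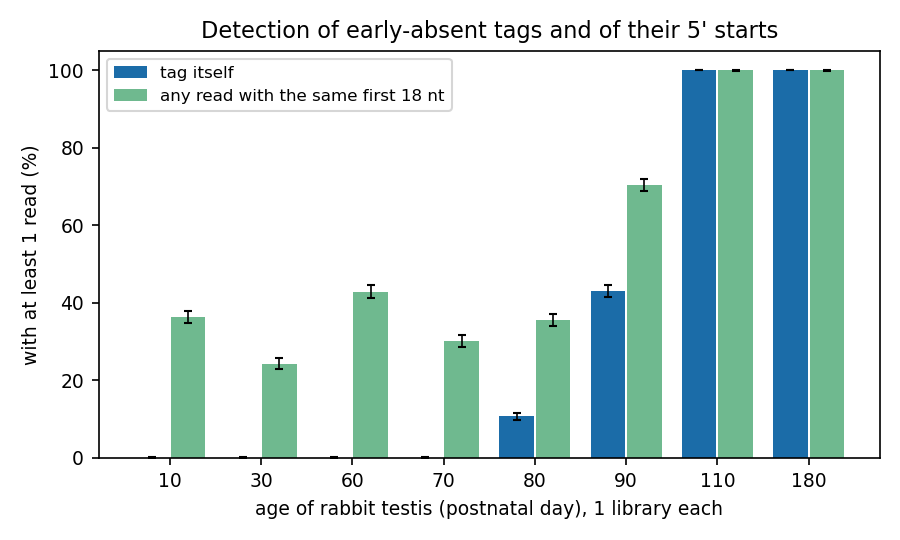
Share of the 4208 early-absent tags (blue) and of their 3478 starts, in reads of any length (green), with at least 1 read in each rabbit library. Error bars are 95% Clopper-Pearson intervals over tags or starts, taken as independent. Tags are at 0 through day 70 by the rule and reach 10.7% and 43.1% at days 80 and 90, while starts stand at 24.2% to 42.8% at days 10 to 70 and at 70.3% at day 90.

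A tag without an early read could have early reads of other forms, that is, of other sequences with the same first 18 nt. The 4208 tags fall on 3478 starts, and 36.3% of these had a read of some form at day 10, 24.2% at day 30, 42.8% at day 60, 30.2% at day 70, 35.6% at day 80 and 70.3% at day 90. Summed over the starts, these reads came to 506 RPM at day 10, 314 at day 30, 792 at day 60, 438 at day 70, 412 at day 80 and 3412 at day 90, against 204393 at day 110. The values at days 10 to 80 do not follow age, and single starts weigh on them. The start with the most reads held 127 of 3823 at day 10, 764 of 2515 at day 30 and 828 of 6477 at day 60. At days 70 and 80 it held 690 of 3238 and 350 of 3427. Whether these reads, or the single reads of tags at day 80, came from RNA of those testes was not tested.

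Over days 10 to 70 together, 1252 starts (36.0%, 34.4% to 37.6%) had no read of any form, 1665 had 1 to 5 reads and 561 had more. The starts without an early read carry 1384 of the early-absent tags (32.9%). They were the less abundant ones, with a median late level of 14.9 RPM over all their forms, against 38.9 for starts with early reads. All early-absent tags together made up 21.7% of the reads of their starts at day 110, the rest being other sequences with the same first 18 nt. Without a genome, whether these come from the same locus was not tested.

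The choice of tags by an absolute absence also leaves close neighbours outside. A single read at days 10 to 70 kept out 2736 late tags and 2 reads kept out 1396, among 31134042 reads in the 4 early libraries. These 4132 tags with 1 or 2 early reads had a median of 11.2 RPM at day 110, against 8.25 in the early-absent tags, and their sum was 59.7-fold higher at day 110 than at day 90.

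At the other edge of the rule, the tags nearest the minimum are shown with the first and the tenth base in capitals.
Inside 1: CatcttaatGggacctggggtctgacatc
Inside 2: CtcatctgtAaatggagccaaggagga
Outside 1: AcccggaacCgctaggcttgagccttgcag
Outside 2: AggtttttcAtctccgttgtgtgtgtct
Both tags just inside had 67 reads at day 110 (5.07 RPM), with 82 and 56 reads at day 180. Both tags just outside had 66 reads at day 110 (4.99 RPM), with 109 and 75 at day 180. A further 1984 tags without an early read had 4 to 5 RPM in their lower library.

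Most early-absent tags were 29 or 30 nt long (53.0%). The most frequent lengths were 30 nt, with 1145 tags (27.2%), and 29 nt, with 1085 (25.8%), followed by 31 nt with 557 and 28 nt with 454. Tags of 25 to 27 nt numbered 856 (20.3%), and 32 nt held 111 (2.64%). Late tags with an early read had nearly the same profile, with 26.8% at 30 nt and 19.9% at 25 to 27 nt. The 774 tags of 25 to 32 nt with 5 RPM at both day 10 and day 30 were spread more evenly, with 19.3% at 28 nt, 10.9% at 30 nt and 11.9% at 32 nt.

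**Figure D2:**
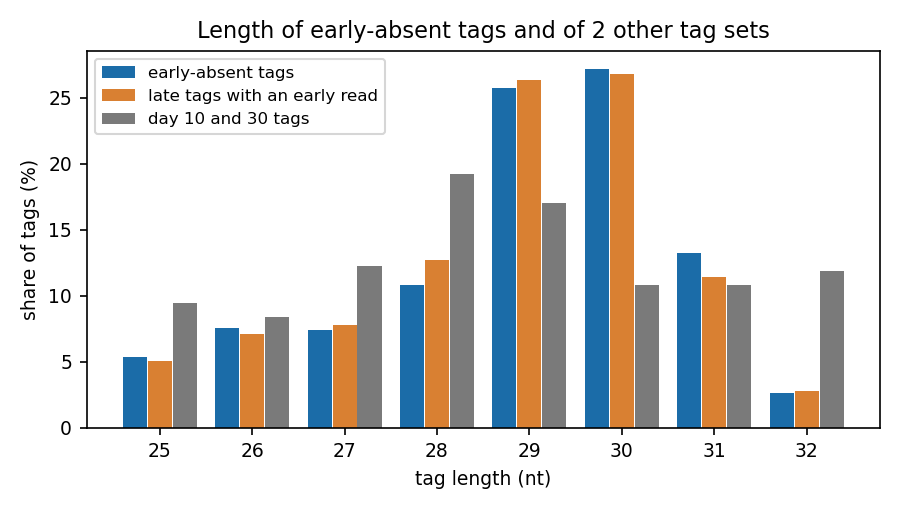
Share of tags (%) by length (nt) in the 4208 early-absent tags, the 6804 late tags with an early read and the 774 tags of days 10 and 30. The first 2 sets peak at 29 and 30 nt, where the early-absent tags hold 25.8% and 27.2%, and the third peaks at 28 nt with 19.3%.

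T was the first base of 3786 early-absent tags (90.0%, 95% interval 89.0% to 90.9%), and C of 159, G of 132 and A of 131. Late tags with an early read began with T in 87.2% of tags, and in 73.0% when weighted by level, where G took 19.2%. In those with 1 or 2 early reads the shares were 89.5% and 89.2%, close to the early-absent tags, and in the 401 with 100 or more early reads T was first in 47.4%. Weighting by level left the early-absent share at 89.8%. Among the 774 tags with 5 RPM at both day 10 and day 30, 45.6% began with T and 30.9% with G. Of all distinct 25 to 32 nt sequences of a library, 73.3% began with T at days 10 and 30 and 73.1% at day 110. Weighted by reads, these library shares were 48.2% at day 10, 57.2% at day 30 and 77.2% at day 110. The first-base T of primary piRNAs was the most frequent at each length of the early-absent tags, from 94.3% at 26 nt to 82.0% at 32 nt.

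A was the tenth base of 1293 early-absent tags (30.7%, 29.3% to 32.1%), T of 1094, G of 1011 and C of 810. The share of A was close to that of late tags with an early read (31.3%) and of all late tags (31.1%). Over all 25 to 32 nt tags of a library it was 31.3% at day 110, 36.7% at day 10 and 40.6% at day 30. Over positions 2 to 25 apart from 10, the share of A in early-absent tags ran from 23.6% to 40.9% and was over that of base 10 at base 5 alone. Base 6 came next, with 30.3%. Base 5 was A in 40.9% of early-absent tags and 41.7% of late tags with an early read, against 27.6% of the tags of days 10 and 30. Base 2 was G in 34.6% of early-absent tags. Split by the first base, A at base 10 was found in 1098 of the 3786 tags that begin with T and in 46.2% of the others (195 of 422, 41.4% to 51.1%). In late tags with an early read the same shares were 30.4% and 37.1%. Tags without a first T thus carried an A at base 10 more often, a difference that was not tested because tags are not replicates.

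The 3' ends were mostly pyrimidines: C ended 1808 tags (43.0%), T 1646 (39.1%), A 532 (12.6%) and G 222 (5.28%). The same shares in late tags with an early read were 45.7%, 37.1%, 12.1% and 5.19%.

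Many early-absent tags share a 5' end. Of 3478 starts, 2873 held 1 early-absent tag, 506 held 2, 78 held 3, 16 held 4 and 5 held 5, so that 1335 tags (31.7%) shared their start with another. Late tags with an early read shared a start in 52.6% of tags. Sharing was sought within each set, of 4208 and 6804 tags, and depends on set size, so these shares do not compare directly. A late tag with an early read sat on the start of 1739 early-absent tags (41.3%). Among the 605 starts with several early-absent tags, the shortest and the longest form differed by 1 nt in 248, by 2 nt in 131 and by 3 nt in 81, and were of 1 length in 31. In 515 of the 605 (85.1%) each shorter form was a prefix of the longest.

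The start with the most early-absent tags, that of LT2, shows how forms differ at the 3' end, with the bases beyond the shortest form in capitals.
Form 1: tgaaagtggaccagagattcctcaa
Form 2: tgaaagtggaccagagattcctcaaA
Form 3: tgaaagtggaccagagattcctcaaGA
Form 4: tgaaagtggaccagagattcctcaaGT
Form 5: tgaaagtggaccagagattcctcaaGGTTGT
Form 1 had 558 reads at day 110 and 287 at day 180, Form 2 had 216 and 94, Form 3 had 275 and 164, Form 4 had 248 and 171, and Form 5 had 107 and 85. The forms share 25 bases and then diverge, so Forms 2, 3 and 4 are not prefixes of Form 5. Day 90 held 5 reads of Form 1, 2 of Form 4 and 1 of Form 5. The start as a whole had 5518 reads at day 110, so forms outside the early-absent set hold most of it, and 4 to 7 reads at each of days 10, 30, 60 and 70.

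Starts also lay close together. A same-strand overlap of at least 16 bases with an early-absent tag at another start was found for 1727 tags (41.0%), and the same among late tags with an early read for 49.4%. These overlaps too were sought within each set, and the second set is the larger, so the shares do not compare directly. Pairs of early-absent tags offset by 1 nt numbered 278, by 2 nt 223, by 3 nt 217 and by 4 nt 116, and 91 were offset by 10 nt. Joined through shared starts and overlaps, the tags form 2636 groups, of which 1774 hold 1 tag and 88 hold 5 or more. The biggest holds 17 tags from 12 starts. Without a rabbit genome these groups have no coordinates, and groups from 1 locus that do not overlap stay apart.

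Among overlaps of 10 to 20 nt on opposite strands, 10 nt was the most frequent. Counted as ordered pairs, early-absent tags formed 154 pairs with a 5' overlap of 10 nt, against 21 (12 nt) to 42 (14 nt) at each overlap of 11 to 20 nt, a mean of 33.5. Counted over 9 matched bases, which takes in an overlap of 9 nt, there were 136 pairs at 9 nt, 327 at 10 nt and 102 to 145 at 11 to 20 nt. With each start counted once, 94 pairs overlapped by 10 nt and 16 to 32 by 11 to 20 nt. Late tags with an early read formed 732 pairs at 10 nt and 60 to 119 at the other overlaps. Between the sets, 375 pairs overlapped by 10 nt and 19 to 67 by 11 to 20 nt. The 10-nt count was 4.60 times the mean of the other overlaps within the early-absent tags and 7.49 times within the late tags with an early read. With each start counted once it was 4.03 times in the early-absent tags, and this was not counted for the late tags with an early read. The 774 tags of days 10 and 30 formed 18 pairs at 10 nt and 0 to 2 at each overlap of 11 to 20 nt.

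**Figure D3:**
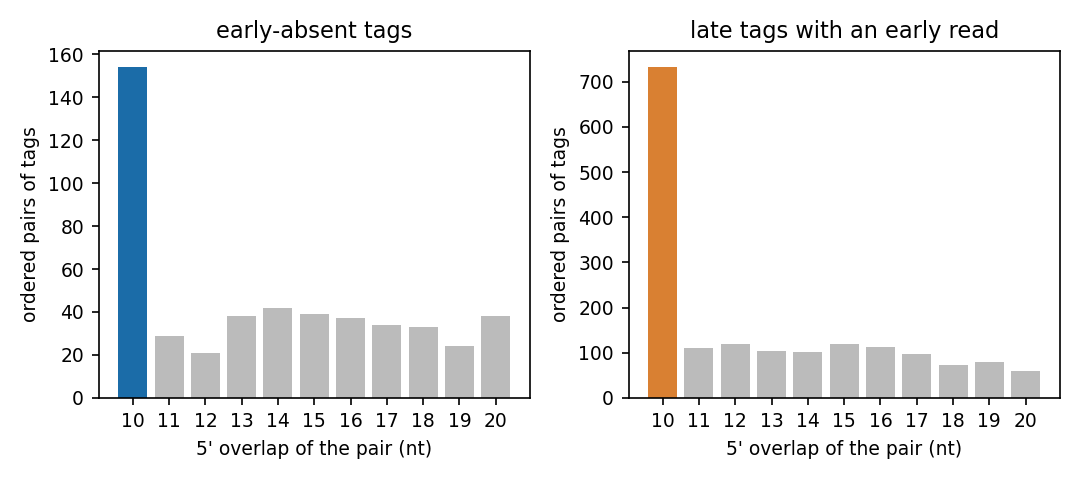
Ordered pairs of tags (count) by the overlap of their 5' ends on opposite strands (nt), in early-absent tags (left) and in late tags with an early read (right), each overlap scored over 10 matched bases. The coloured bar is the overlap of 10 nt, at 154 against 21 to 42 on the left and at 732 against 60 to 119 on the right.

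These pairs involve few of the tags. The 154 ordered pairs are 77 pairs of 111 tags (2.64%) on 47 pairs of starts, and 183 tags (4.35%) had a partner among all late tags. These counts include matches of 10 bases of the kind found at other overlaps, where the mean was 33.5 ordered pairs. Without a genome, which single pairs come from opposite strands of 1 locus was not tested. Both partners began with T in 39 of the 77 pairs and 1 did in 38, so that none lacked it. Of the 111 tags, 71.2% had A at base 10, which the first T of a partner requires, against 29.6% of tags without a partner. A partner was found for 24 of 422 tags without a first T (5.69%) and for 87 of 3786 that begin with T (2.30%). Among tags with A at base 10 alone, these were 24 of 195 (12.3%) and 55 of 1098 (5.01%). Paired tags were of 28 to 32 nt in 64.9%, and tags without a partner in 80.1%.

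The 3 pairs whose lower partner had the highest level are shown with the 10 complementary bases in capitals.
Pair 1, first: TGTCCTTCTAcaactgtctctgactgtgac
Pair 1, second: TAGAAGGACAtctgatcaggtgacgg
Pair 2, first: TTTGTGGAAAaacggaattaaaagataagt
Pair 2, second: TTTCCACAAActatttgatgtacccaatg
Pair 3, first: AGGAATGTTAgattttagtcttttc
Pair 3, second: TAACATTCCTttgatgagtcccctagaa
The tags of Pair 1 had 156 and 200 reads at day 110, and 185 and 120 at day 180. The tags of Pair 2 had 348 and 156 reads at day 110, and 190 and 146 at day 180. The tags of Pair 3 had 167 and 129 reads at day 110, and 135 and 149 at day 180. Since both tags of a pair had to pass the minimum, and pairs were picked by their lower partner, the likeness of their levels is not a result. Both partners of Pairs 1 and 2 begin with T and have A at base 10, and in Pair 3 the first begins with A and has A at base 10. The starts of Pair 2 had no early read in any form, while the first start of Pair 1 had 9 to 36 reads at each of days 10, 30, 60 and 70.

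Shorter early-absent tags were seen at day 90 more often than longer ones. A read was present at day 90 for 534 of 856 tags of 25 to 27 nt (62.4%, 95% interval 59.0% to 65.6%) and for 1278 of 3352 tags of 28 to 32 nt (38.1%, 36.5% to 39.8%). At day 80 the shares were 10.7% in both classes. By single length the day 90 share was 56.2% at 25 nt, 64.5% at 26 nt, 64.7% at 27 nt, 44.5% at 28 nt, 35.6% at 29 nt, 36.8% at 30 nt, 40.2% at 31 nt and 40.5% at 32 nt. The summed day 90 level was 3.50% of the day 110 level for the shorter tags and 1.19% for the longer.

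The split by length was present within each of 4 equal classes of late level (1052 tags each), from 54.2% against 29.9% in the lowest class to 74.2% against 49.3% in the highest. It was also present on starts without an early read, at 59.1% against 30.2%. On the 228 starts that carry early-absent tags of both classes the shares were 64.3% (258 tags) and 55.7% (282 tags), with day 90 levels of 3.01% and 1.91% of day 110, so that there the gap was narrower. Late tags with 1 or 2 early reads, which the rule left out, showed 68.1% against 45.8%. Reads of all forms of the early-absent starts were 25 to 27 nt long in 38.2% at day 90, against 18.7% to 23.1% at days 10 to 70, 28.5% at day 80, 17.8% at day 110 and 17.4% at day 180. All of these day 90 values rest on 1 library.

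**Figure D4:**
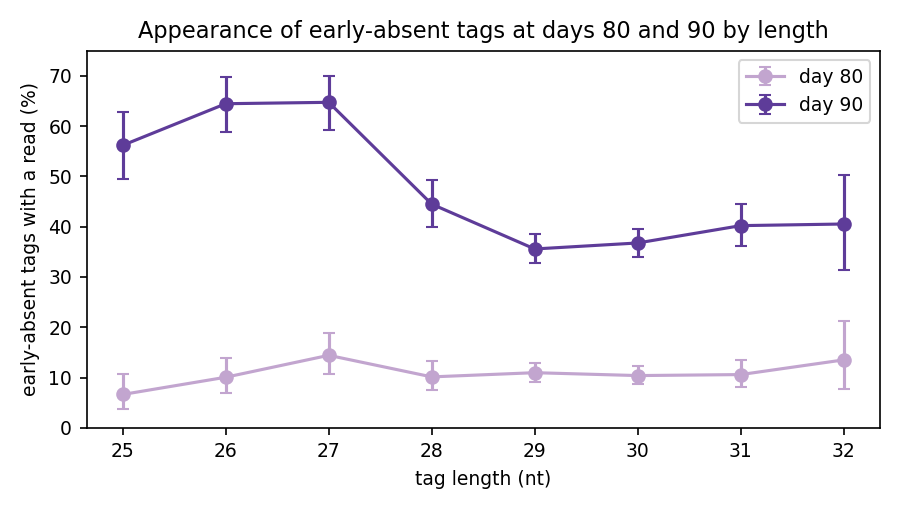
Share of early-absent tags with at least 1 read at day 80 (light) and day 90 (dark) by tag length (nt), with 95% Clopper-Pearson intervals over tags, taken as independent. At day 90, lengths of 25 to 27 nt lie at 56.2% to 64.7% and lengths of 28 to 32 nt at 35.6% to 44.5%, and at day 80 all lengths lie at 6.64% to 14.4%.

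Appearance at day 90 also differed with level and first base. It was 35.4% in the lowest class of late level and 53.8% in the highest, and was 44.7% for tags that begin with T and 28.4% for the others. With and without A at base 10 the shares were 43.4% and 42.9%, and with and without a 10-nt partner 41.4% and 43.1%.

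The 3 tags at 5 RPM or more at day 90 are short and begin with T.
Day 90 tag 1: TgcactcaaAttccgcggaattagaaa
Day 90 tag 2: TggtcttgaCacaggaacccttggtc
Day 90 tag 3: TgtctgcagAacctgcgaattccctc
Day 90 tag 1 had 44 reads at day 90, 928 at day 110 (70.2 RPM) and 151 at day 180 (15.7 RPM). Day 90 tag 2 had 44, 248 and 244 reads, and Day 90 tag 3 had 40, 510 and 111. Tags 1 and 3 were more than 2-fold lower at day 180 than at day 110, and tag 2 was not.

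Levels at the late ages are a description, since the rule's minimum of 5 RPM at both keeps a tag near it from being much lower in either library. The median log2 ratio of day 180 over day 110 was 0.19, with quartiles of -0.16 and 0.56, and Spearman's rho across the 4208 tags was 0.58, as a description of tags that share both libraries. At least 2-fold higher at day 180 were 323 tags (7.68%), against 9.63% of all late tags, and at least 2-fold lower were 110 (2.61%), against 3.91%. The early-absent tags lie nearer the minimum than the other late tags, with a median of 8.25 against 14.4 RPM at day 110, so nothing is read from these shares. Scaled by reads of 25 to 32 nt, every log2 ratio shifted by -0.11, and 227 tags (5.39%) were higher and 149 (3.54%) lower, against 7.09% and 4.98% of all late tags.

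The tags with the most unequal levels are shown with the first and the tenth base in capitals.
Rise 1: TccgggttaActctaaaacgctgttggct
Rise 2: TaaagccagActgctttagacgtggagctt
Fall 1: TaagaaaatCcctggggctgtagcctctt
Fall 2: TttccaattTtaaggctctgtgaacaatgt
Rise 1 went from 90 reads (6.81 RPM) to 379 (39.4 RPM), a log2 ratio of 2.53 with a 95% counting interval of 2.20 to 2.88. Rise 2 went from 69 reads (5.22 RPM) to 239 (24.9 RPM), a log2 ratio of 2.25. Fall 1 went from 628 reads (47.5 RPM) to 95 (9.88 RPM), a log2 ratio of -2.27 with an interval of -2.59 to -1.95. Fall 2 went from 960 reads (72.6 RPM) to 147 (15.3 RPM), a log2 ratio of -2.25. These tags were picked as the extremes of this ratio, a choice that the counting intervals do not allow for. Counting every form, the start of Fall 1 had 6796 reads at day 110 and 608 at day 180, and the start of Rise 2 had 1144 and 2864, so that the starts differed in the same direction as the tags.

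**Figure D5:**
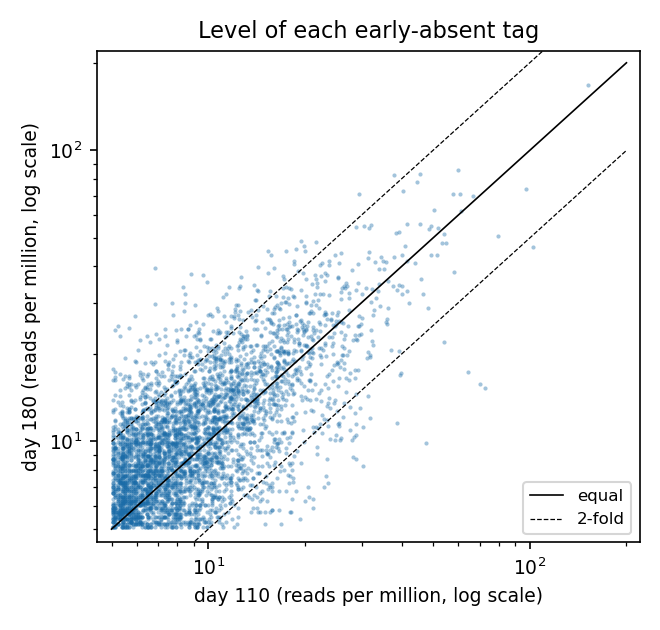
Level of each of the 4208 early-absent tags at day 110 and day 180 (RPM, log axes, 1 point per tag), with lines for equal levels and for 2-fold differences. The points start at 5 RPM by the rule, 323 lie on or above the upper 2-fold line and 110 on or below the lower one, and the point at 152 and 168 is LT1.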

How the data were processed

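Small RNA libraries were made from total RNA by an Illumina protocol and sequenced on a HiSeq instrument, per the labels' protocols. The authors deposited, for each library, every distinct read sequence with its raw read count, not normalised. How adapters were trimmed is not given in the sources used here. Bowtie and the rabbit build OryCun2.0 stand in the submitters' processing notes, without roles. No rabbit genome was used here, so tags were handled as sequences and have no coordinates.

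Counts were divided by the library total and given per 1000000 reads (RPM). A start is a shared first 18 nt. Pairs were counted where the first 10 bases of 1 tag are the reverse complement of bases ending at position 10 to 20 of another, so that each overlap rests on the same number of matched bases. Same-strand overlaps needed 16 identical bases. Intervals of shares are 95% Clopper-Pearson intervals over tags or starts. They treat these as independent draws, although tags share starts and overlap, so they can be too narrow. For log2 ratios of named tags the intervals are exact conditional binomial ones and cover counting error only, since reads carry no molecular identifiers. None covers the spread between animals. A level counts as changed at 2-fold. Every age has 1 library, so no test between ages was possible, and tags are not replicates, so none was run over tags. The counting functions were tested on simulated tags. Mouse, rat and pig libraries were searched for identical sequences, and GENCODE mouse transcripts for exact matches. Analyses used Python 3.11.15, pandas 2.3.3 and scipy 1.17.1.

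The tags and the lists compared were chosen with earlier results of these data known. Tags named are the most abundant tag of each of the 10 starts with the highest summed level of early-absent tags, the 3 strongest 10-nt pairs (by the lower partner, 1 pair per start), the 2 largest rises and 2 largest falls from day 110 to day 180, the 2 tags on either side of the minimum, the 3 highest at day 80, the 3 most abundant without a read at days 80 and 90, and the start with the most tags (of 5 that tie, the one with the highest summed level of such tags). Tags shared with another species and the highest at day 90 were chosen after their values were seen. Alternatives varied the minimum, scaling, absence rule, length window, 5' key, pairing and read minimum.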

Additional observations from a re-analysis of the deposited data

How the results depend on the processing

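Of 99 alternatives over 9 results, 49 left the value within its 95% interval, 50 moved it and 0 reversed it. For the median log2 ratio this was a binomial interval of the median over tags, 0.172 to 0.210, which treats tags as independent. The number of tags has no interval and was held unmoved within 1.5 times. The share with A at base 10 stayed within its interval under each alternative run. The number of tags (4208) became 16107 with a minimum of 2 RPM, 1170 with 10 RPM, 7131 scaled by 25 to 32 nt reads, 7978 with at most 1 read in each early library allowed, and 6693 with absence at days 10 and 30 alone. In that order of settings, the share seen at day 80 (10.7%) became 6.61%, 17.0%, 8.72%, 13.4% and 13.7%. The share seen at day 90 (43.1%) became 30.7%, 54.2%, 37.9%, 46.6% and 46.5%. The share with a shared start (31.7%) became 50.7%, 15.6%, 39.5%, 50.7% and 44.7%, and the share with a 10-nt partner (2.64%) became 4.71%, 0.684%, 3.48%, 3.9985% and 3.62%. Shared starts and partners were sought within each set of tags, so both shares depend on its size. A share of 28 nt or more (79.7%) became 77.5% with 2 RPM, 81.8% with 10 RPM and 83.7% within 26 to 31 nt, where the shared-start share was 29.01%.

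With tags of 1 start joined, 81.0% were of 28 nt or more, 12.6% had a read at day 80 and 44.6% at day 90. Asking for 3 reads left 0.309% at day 80 and 16.4% at day 90. A partner was found for 4.35% among all late tags for 2.57% at an overlap of 9 nt and for 0.166% at an overlap of 11 nt, where fewer or more bases had to match, so that these shares do not compare with 10 nt. The median log2 ratio (0.19) became 0.22 when tags were chosen by 25 to 32 nt reads and 0.22 with 1 early read allowed.

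The 3 alternatives that follow were chosen after seeing the data. Over 8 matched bases the early-absent tags formed 728 pairs at 10 nt, 350 at 8 nt, 452 at 9 nt and 402 to 525 at 11 to 20 nt. With no early read of any form of the start, 1384 tags were left. Of these, 84.1% were of 28 nt or more, 17.8% had a shared start, 9.10% were seen at day 80 and 34.8% at day 90. A partner within these 1384 was found for 0.506%, and a partner among all 4208 early-absent tags for 23 of them (1.66%). With absence at days 80 and 90 too, 2189 were left, with T first in 87.3%, 86.4% of 28 nt or more, 17.3% with a shared start, 1.74% with a partner and a median log2 ratio of 0.26. Joined tags give no shared-start share, and absence at days 80 and 90 leaves no share there. No paired analysis was possible because each age has 1 library and the labels carry no replicate numbers, so no library could be left out in turn either. Depth limits the days before 110 most, where 1 read is 0.120 to 0.135 RPM and a tag below that can be missed.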

Other observations

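The early-absent tags were rarely found in other mammals. An identical sequence was read in any of the 10 mouse libraries for 5 of 4208 tags (0.119%), in the adult rat testis library for 4 and in the adult pig testis library for 4. Late tags with an early read were found in mouse for 369 of 6804 (5.42%), in rat for 354 and in pig for 354. Every mouse library held at least 252 of these tags, and cultured spermatogonia stem cells held 354. The rule places all late tags with many early reads in this set, so the contrast depends on the rule. Late tags with few early reads were not compared on their own. Whether rare sharing is particular to early-absent tags was not tested. Exact matches to GENCODE mouse transcripts were found for 1 early-absent tag, in the sense direction, and for 26 late tags with an early read, among them 8 in rRNA, 8 in snRNA and 4 in miRNA transcripts. In mouse germ cells the shared early-absent tags were read in pachytene spermatocytes, round sperms and mature sperms, and in none of the SSC, pre-leptotene, leptotene and zygotene libraries.

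The most abundant of the shared tags and 3 that overlap one another in pig are shown with the first and the tenth base in capitals.
Shared with mouse and rat: TactgagtgCttactatgtgccaggcact
Shared with pig, first: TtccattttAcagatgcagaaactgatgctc
Shared with pig, second: TccattttaCagatgcagaaactgatgctc
Shared with pig, last: CcattttacAgatgcagaaactgatgct
The tag shared with mouse and rat had 3 reads at day 80, 7 at day 90, 501 at day 110 (37.9 RPM) and 789 at day 180 (82.1 RPM), with 19 reads in mouse pachytene spermatocytes, 17 in round sperms and 110 in rat testis. The pig tags had 17, 23 and 11 reads in pig testis and, in the same order, 164, 72 and 100 reads in rabbit testis at day 110. Their starts lie 1 nt apart, and none of the 3 was read in mouse or rat.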
